A study of Mus musculus with 8 samples.

Results

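Fibro-adipogenic progenitors are the mesenchymal cells that lie between the fibres of skeletal muscle, and 10 genes by which they are commonly recognised were followed in soleus RNA-seq: Pdgfra, Ly6a, Dpt, Pi16, Cd34, Tcf7l2, Dpp4, Gsn, Osr1 and Thy1. The genes were given as a list of symbols and were found through their Ensembl identifiers among 22880 counted genes. The soleus, a calf muscle rich in slow fibres, came from male mice on a C57BL/6 background at 2 months of age. The 4 controls were Dnm2 +/+ and the 4 mutants were Dnm2 +/K562E, heterozygous for a point mutation of dynamin 2, a GTPase that pinches off membrane vesicles. The mutation had been placed in the endogenous locus by homologous recombination, so that it was present in every cell type of the muscle and not in muscle fibres alone. Each library came from a different animal. The comparison asks how the markers of these progenitors differ between muscles of mutant and control mice.

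Fibro-adipogenic progenitors sense platelet-derived growth factor through the receptor Pdgfra, build and remodel the connective tissue between fibres, and feed satellite cells, the stem cells of muscle, with secreted factors after injury. They can turn into adipocytes or matrix-producing fibroblasts when muscle degenerates. None of the 10 markers is exclusive to them: Cd34 and Ly6a are also made by endothelial cells, Gsn by many cell types including muscle fibres, and several of the others by fibroblasts of tendon and nerve. The libraries were made from whole muscle, in which more cells of a type and more RNA per cell cannot be told apart.

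The markers were mostly higher in Dnm2 +/K562E soleus, led by Pdgfra, the matrix protein gene Dpt and the progenitor marker Pi16, whereas Ly6a, which encodes the stem cell antigen Sca-1, was not. All 10 passed the filter on low counts and were tested among 14001 genes with edgeR's quasi-likelihood test. A call required a Benjamini-Hochberg adjusted p under 0.05 together with a change of 0.58 or more on the log2 scale, up or down. By this rule 6 of the 10 markers were called higher, or 60%, against 12.9% of all tested genes. Pdgfra, Dpt, Pi16, Cd34, Dpp4 and Gsn were the 6. None was called lower, against 7.85% of all tested genes, and 1 of the 10, Ly6a, was lower at an unadjusted p under 0.05 by the same test in edgeR. DESeq2 and the exact test of edgeR called the same 6 genes higher and likewise none lower. The median log2 fold change of the 10 markers was 0.67, and that of all tested genes was 0.01. For 4 markers (Pdgfra, Dpt, Cd34 and Gsn) every mutant lay above every control, which held for 20.6% of all tested genes. For none did every mutant lie below every control, which held for 20.5% of all tested genes.

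**Figure D1:**
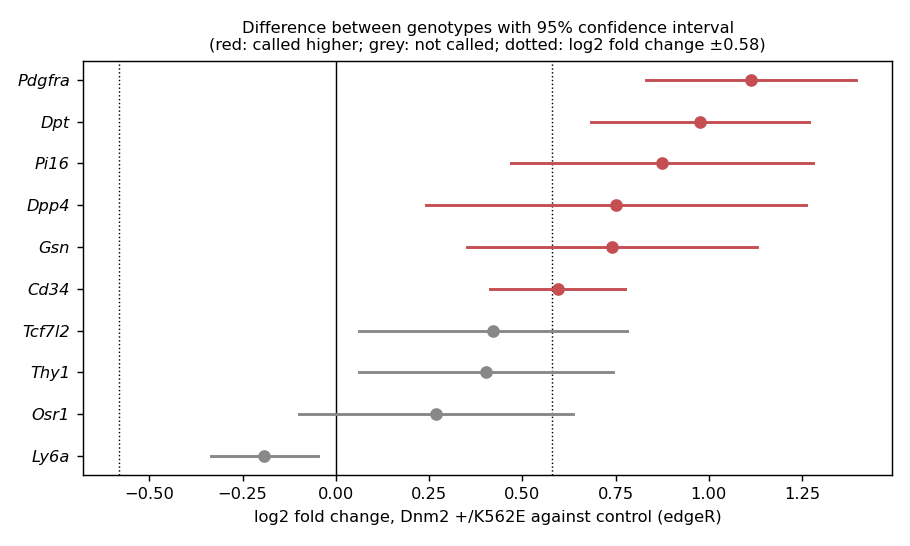
Log2 fold change of each marker in Dnm2 +/K562E against control soleus from the fit across all genes (x axis), 1 row per gene, with bars for the 95% confidence interval and n = 4 mice per genotype. The 6 genes called higher run from 0.60 for Cd34 to 1.11 for Pdgfra, and the interval of Ly6a lies below 0.

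Total counts ran from 33407430 to 48832814 per mouse, and every marker was counted at least 92 times in every mouse. Levels are normalized CPM, that is, counts per unit of sequenced library, with library sizes corrected by the TMM factors of edgeR. These factors lay between 0.915 and 0.959 in controls and between 1.037 and 1.103 in mutants, so the scaling moved the genotypes relative to each other. With library size alone the median of all tested genes rose by 0.21 on the log2 scale. Relative to that median the markers ran from 1.11 for Pdgfra to -0.20 for Ly6a. A change of scaling moves all genes by nearly the same amount, so this likeness to the main values follows from the arithmetic and tests nothing. The defining genes of slow muscle were abundant, and Myh7 and Tnnt1 stood at 6012 ± 262 and 1829 ± 106 CPM in controls (SD, n = 4). Both were lower in every mutant, at 4192 ± 391 and 1314 ± 139 CPM (SD, n = 4).

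Pdgfra, the receptor for platelet-derived growth factor A and C that defines these progenitors, had the largest log2 fold change of the 10. On GRCm38 it lies on the plus strand of chromosome 5, from 75152292 to 75198215. Its level was 41.6, 41.9, 47.4 and 60.8 CPM in controls 1 to 4 and 105, 120.5, 98.2 and 91.4 CPM in mutants 1 to 4. The highest control remained well under the lowest mutant, and mutant 2 was the highest of all. The mean rose from 47.9 ± 9.02 to 103.7 ± 12.4 CPM (SD, n = 4 each). This was a log2 fold change of 1.11 with a standard error of 0.13 (Benjamini-Hochberg adjusted p = 5.54e-05 from edgeR's quasi-likelihood test), or 2.16-fold. Leaving out any 1 mouse kept the log2 fold change between 1.03 and 1.24.

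The other receptor of the family, Pdgfrb, which is found on pericytes and fibroblasts, was at 107.1 ± 10.9 CPM in controls and 119.7 ± 15.7 CPM in mutants (SD, n = 4 each). Its values overlapped and it was not called (log2 fold change 0.16, 95% confidence interval -0.06 to 0.38). Among the ligands none passed the rule. Pdgfa, a ligand of Pdgfra, was slightly higher in all 4 mutants, at 14.1 to 15.7 CPM against 12.2 to 13.8 CPM in controls (log2 fold change 0.21). Pdgfd, a ligand of Pdgfrb, was lower in all 4 mutants, at 10.02 to 13.6 CPM against 15.7 to 17.3 CPM (log2 fold change -0.54), and it passed the rule without mutant 2 (-0.65). Pdgfb overlapped between the genotypes with a log2 fold change of 0.12. Pdgfc overlapped as well, at 0.03, and its sign changed without control 2 (-0.05), control 3 (-0.06) or mutant 2 (-0.06). The proteases that activate the latent C and D ligands were Plat, at 0.51 and without overlap, and Plau, at 0.53 with overlap. Plau passed the rule without control 4 (0.67) or without mutant 4 (0.67). Of the 8 genes of this list, 1, Pdgfra itself, was called higher and none lower, with a median log2 fold change of 0.19.

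Promoter sequence was at hand in RefSeq (GRCm38.p6) for 7 of the 10 markers, as the 250 bases before each annotated start, in 10 entries. Ly6a, Osr1 and Thy1 had none. Short motifs, none contained in another, were searched on both strands, with all 32851 RefSeq windows of the same length as the background. The TATA box, spelled TATAAA, was found in 12.4% of all windows. The CCAAT box was found in 33.8% and the GC box, spelled GGGCGG, in 32.7%. The AP-1 site, spelled TGANTCA, was found in 6.75%. The core of TCF and LEF sites, spelled CTTTGA, was found in 13.8% and the TEAD core, spelled GGAATG, in 12.6%. The windows of Pdgfra and Dpp4 are shown because the pair stands at opposite ends of the higher markers in how firmly the call was held, and because they differ in what they contain. Capitals mark a motif. The Pdgfra window (chr5:75152001-75152250, plus strand) holds none of the letters searched. The Dpp4 window (chr2:62412232-62412481, minus strand) holds the letters of the TATA box and, on the other strand, the TEAD core. Their first bases lie at -227 and -118 from the annotated start.
Pdgfra: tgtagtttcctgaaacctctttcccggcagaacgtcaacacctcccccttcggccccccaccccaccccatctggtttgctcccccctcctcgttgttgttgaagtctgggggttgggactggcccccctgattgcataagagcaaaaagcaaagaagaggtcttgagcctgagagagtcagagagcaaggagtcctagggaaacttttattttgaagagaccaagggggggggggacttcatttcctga
Dpp4: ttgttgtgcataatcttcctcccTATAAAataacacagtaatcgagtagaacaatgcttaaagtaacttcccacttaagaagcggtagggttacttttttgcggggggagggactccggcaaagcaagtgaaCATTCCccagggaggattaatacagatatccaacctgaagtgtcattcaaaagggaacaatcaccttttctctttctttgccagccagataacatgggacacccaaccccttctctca
Neither AP-1 nor TCF/LEF letters were found in any of the 10 marker windows. A match or its absence is a description of these letters and says nothing about binding.

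**Figure D2:**
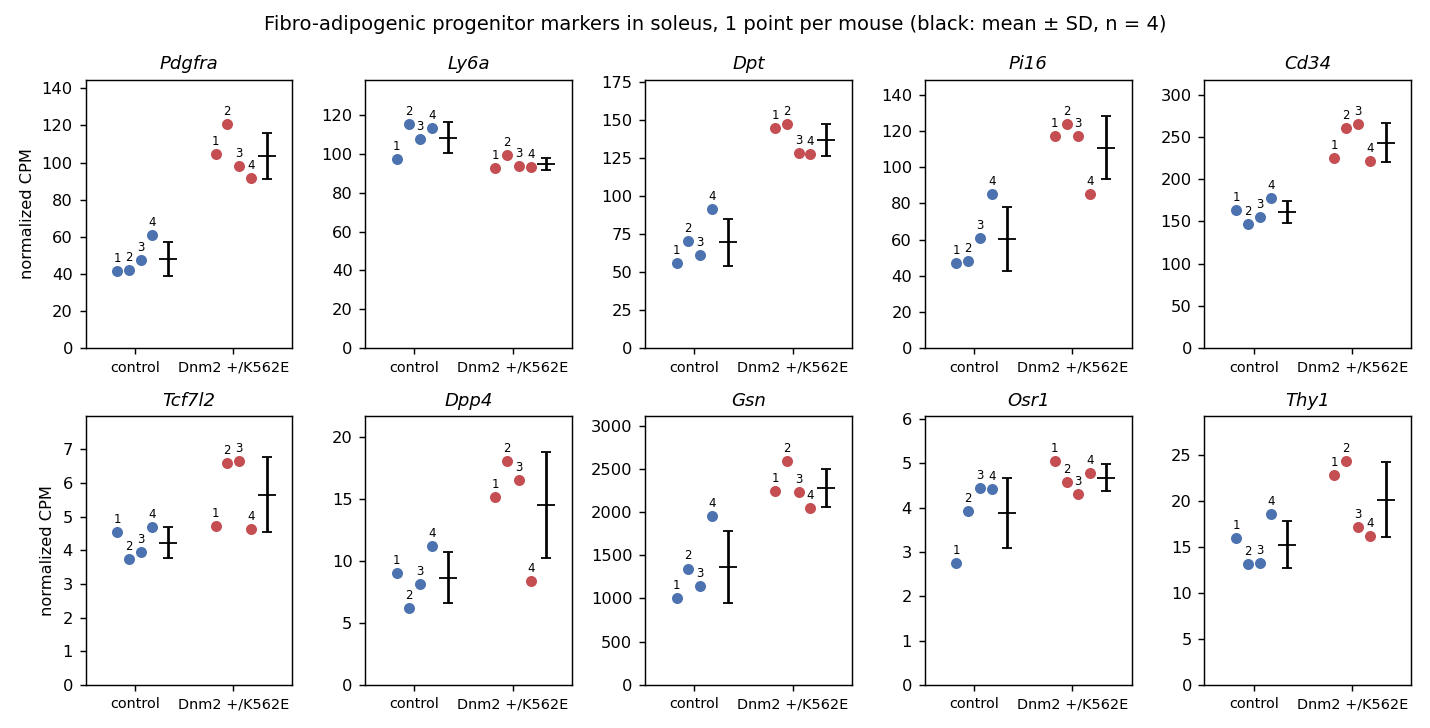
Normalized CPM (y axis, linear from 0) of each marker in each of 4 control and 4 Dnm2 +/K562E mice, with points numbered by mouse and bars for mean ± SD. Pdgfra, Dpt, Cd34 and Gsn separate the genotypes, Pi16 and Dpp4 overlap through mutant 4, and Ly6a sits lower in mutants.

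The surface glycoproteins moved unequally. Cd34, a sialomucin of progenitor and endothelial cells (chromosome 1, 194938819 to 194961279, plus strand), was at 163, 147.0, 156 and 178 CPM in controls 1 to 4 and at 225, 261, 265 and 222 CPM in mutants 1 to 4. The genotypes did not overlap. Its mean rose from 160.9 ± 13.2 to 243.1 ± 23.0 CPM (SD, n = 4 each), a log2 fold change of 0.60 with a standard error of 0.08 (Benjamini-Hochberg adjusted p = 0.000198 from edgeR's quasi-likelihood test). This is close to the fold threshold, and Cd34 was under it without control 2 (0.55), control 3 (0.58), mutant 2 (0.56) or mutant 3 (0.55). Thy1, a small glycolipid-anchored protein of fibroblasts and neurons (chromosome 9, 44043384 to 44048579, plus strand), was at 16.0, 13.2, 13.3 and 18.6 CPM in controls and at 22.9, 24.4, 17.2 and 16.2 CPM in mutants. Mutants 1 and 2 were above every control and mutants 3 and 4 within the control range. Its log2 fold change of 0.40, with a standard error of 0.15, was not called (adjusted p = 0.0546, same test). Scaled by library size only, it was 0.62 (adjusted p = 0.0129, same test). With control 4 and mutant 4 both left out it was 0.60 (adjusted p = 0.0102, same test). These mice were its highest control and lowest mutant and were picked after the data were seen, so a larger difference was bound to follow.

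Ly6a was the marker that ran the other way. It encodes Sca-1, a glycolipid-anchored antigen by which these progenitors are sorted and which capillary endothelium also carries, and lies on the minus strand of chromosome 15, from 74994877 to 74998031. Its level was 97.2, 115, 108 and 113 CPM in controls 1 to 4 and 92.5, 99.5, 93.7 and 93.4 CPM in mutants 1 to 4. Only mutant 2 reached into the control range, above control 1. The mean was 108.3 ± 8.04 CPM in controls and 94.8 ± 3.18 CPM in mutants (SD, n = 4 each), a log2 fold change of -0.19 with a standard error of 0.06 (adjusted p = 0.0332, same test), too small to be called. The adjusted p was over 0.05 with the exact test of edgeR (0.0526), and lay between 0.063 and 0.0968 in the quasi-likelihood test when any mouse other than control 1 or mutant 2 was left out. With the title or description numbers as a replicate block it was 0.0565 or 0.0754 (same test). The adjusted p was under 0.05 with DESeq2 (0.0215). In the quasi-likelihood test it was also under 0.05 with median-ratio factors (0.0336), no filter (0.0444) or at least 10 counts in every mouse (0.0392). The same held without control 1 (0.00529) or without mutant 2 (0.0377, same test). An adjusted p under 0.05 and a lower mean, without a fold threshold, held for 21.7% of all tested genes. With library size alone the sign turned (0.02).

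Stretches of the Ly6a sequence also occur in its relatives. Of the 31-base stretches in its transcripts, 31.9% occur in other genes, led by Ly6c1, Ly6i and Ly6c2. For the other 9 markers this share was between 0% and 7.4%, so the count of Ly6a may be less certain than theirs. The study's methods describe reads much longer than these stretches, and the share of Ly6a reads that also fit another gene was not measured. The methods also set a minimum mapping quality for counting. Whether reads that fit several genes were dropped or kept by it was not tested. The first 90 coding bases of Ly6a and Ly6c1 (GENCODE M21) are shown because the 2 genes are nearly identical there. They differ at 4 positions, in capitals.
Ly6a: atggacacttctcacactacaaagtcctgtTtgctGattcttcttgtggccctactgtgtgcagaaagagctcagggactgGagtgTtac
Ly6c1: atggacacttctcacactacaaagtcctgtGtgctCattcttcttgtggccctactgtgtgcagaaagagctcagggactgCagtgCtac
Over 393 aligned coding bases the 2 genes were identical at 76.3%. Ly6c1, which capillary endothelium carries as well, was at 163 to 179 CPM in controls and 116 to 144 CPM in mutants, without overlap (log2 fold change -0.32). Ly6e, a broadly expressed member, had a log2 fold change of -0.31 without overlap, and Ly6c2, a monocyte antigen, one of -0.23 with overlap. Gpihbp1, the capillary anchor of lipoprotein lipase, was the member called lower (-0.74), and with library size alone it was -0.53 and not called. Ly6i was counted between 3 and 21 times per mouse and was not tested. Of the 12 family members listed, 5 were tested, none was called higher and 1 was called lower, with a median log2 fold change of -0.31.

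Pi16 and Dpp4 mark the subset of progenitors that lies in connective tissue sheaths and is held to be the least differentiated. Pi16, a peptidase inhibitor-like surface protein (chromosome 17, 29317680 to 29330593, plus strand), was at 47.0, 48.3, 60.8 and 85.4 CPM in controls 1 to 4 and at 117, 124, 117.0 and 85.1 CPM in mutants 1 to 4. Mutants 1 to 3 were above every control, and mutant 4 lay just under control 4. The mean rose from 60.4 ± 17.8 to 110.7 ± 17.4 CPM (SD, n = 4 each), a log2 fold change of 0.87 with a standard error of 0.18 (Benjamini-Hochberg adjusted p = 0.00286 from edgeR's quasi-likelihood test). Dpp4, a dipeptidyl peptidase that trims the ends of chemokines and hormones (chromosome 2, 62330073 to 62412231, minus strand), was at 9.03, 6.24, 8.15 and 11.2 CPM in controls and at 15.2, 18.1, 16.6 and 8.38 CPM in mutants. The pattern was that of Pi16, with mutant 4 inside the control range and the other mutants above it.

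Dpp4 rose from 8.65 ± 2.05 to 14.5 ± 4.27 CPM (SD, n = 4 each), a log2 fold change of 0.75 with a standard error of 0.23 (adjusted p = 0.0216, same test). This call was the least stable of the 6. It was lost without control 2 (0.62), control 3 (0.72), mutant 1 (0.73), mutant 2 (0.63) or mutant 3 (0.68), with adjusted p between 0.0512 and 0.0646 in the same test. It was also lost with the mouse numbers of the titles or of the descriptions as a replicate block (0.73 in both, adjusted p = 0.079 and 0.0527, same test). Of 11 further genes of this progenitor subset, 5 were called higher and none lower, with a median log2 fold change of 0.57. Mfap5, a microfibril protein, rose most, from 52.3 ± 7.27 to 155.7 ± 29.6 CPM (SD, n = 4 each, log2 fold change 1.57). Sema3c, a secreted guidance cue, rose as well (0.69). Cd55, a complement regulator, and Ackr3, a chemokine scavenger, overlapped between the genotypes with log2 fold changes of 0.24 and 0.14. Procr, the protein C receptor, stood at the other end (-0.38, not called).

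Per kilobase of exon, Gsn and Dpt were the most abundant of the 6 markers called higher. Dpt encodes dermatopontin, a small matrix protein that binds decorin and helps collagen assemble (chromosome 1, 164796644 to 164824266, plus strand). It was at 55.6, 70.0, 61.4 and 91.1 CPM in controls 1 to 4 and at 144, 147, 128 and 128 CPM in mutants 1 to 4. All mutants were above all controls, although control 4 stood nearer to them than the other controls did. The mean rose from 69.6 ± 15.5 to 136.8 ± 10.3 CPM (SD, n = 4 each), a log2 fold change of 0.98 with a standard error of 0.13 (Benjamini-Hochberg adjusted p = 0.000179 from edgeR's quasi-likelihood test). Gsn encodes gelsolin, which severs and caps actin filaments (chromosome 2, 35256380 to 35307892, plus strand). Its values were 1001, 1346.5, 1149.5 and 1955 CPM in controls and 2246, 2590, 2227 and 2052 CPM in mutants. Control 4 came closest to the mutants, without overlap. The mean rose from 1363 ± 419 to 2278 ± 225 CPM (SD, n = 4 each), a log2 fold change of 0.74 with a standard error of 0.18 (adjusted p = 0.00593, same test). Neither gene shared a 31-base stretch with another gene.

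Neither of the transcription factors was called. Osr1, an odd-skipped related zinc finger factor active in developing and regenerating connective tissue (chromosome 12, 9570116 to 9581500, plus strand), was at 2.74, 3.92, 4.43 and 4.42 CPM in controls and at 5.05, 4.58, 4.32 and 4.78 CPM in mutants. Apart from control 1, the genotypes lay close together. Its log2 fold change was 0.27 with a 95% confidence interval from -0.10 to 0.64 (adjusted p = 0.215, same test). Tcf7l2, a DNA-binding partner of beta-catenin that marks connective tissue fibroblasts of muscle (chromosome 19, 55741820 to 55933654, plus strand), was at 4.56, 3.74, 3.94 and 4.68 CPM in controls and at 4.72, 6.60, 6.65 and 4.65 CPM in mutants. Mutants 2 and 3 were well above the controls and mutants 1 and 4 level with the highest of them. Its log2 fold change of 0.42 had a 95% confidence interval from 0.06 to 0.78 and was not called (adjusted p = 0.0562, same test). Under scaling by library size only, it was 0.63 and passed (adjusted p = 0.0106, same test).

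Of 12 other genes of TCF and LEF factors, beta-catenin and Wnt targets, 10 were tested, 2 were called higher and 1 lower, with a median log2 fold change of 0.20. The related factor Tcf7l1 was higher in all 4 mutants, at 12.8 to 15.9 CPM against 9.58 to 12.2 CPM, but below the fold threshold (0.40). Tcf7 and Lef1, the other members of that factor family, were low, with mean levels of 0.904 and 0.322 CPM in controls. Rnf43, a ubiquitin ligase that removes Wnt receptors, rose from 0.308 ± 0.0964 to 1.10 ± 0.137 CPM (SD, n = 4 each, log2 fold change 1.84). Nkd1, another feedback inhibitor, was called lower (-0.62), but not without control 2 (-0.57) or mutant 1 (-0.55), nor with library size alone (-0.41).

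Levels of different genes were compared per kilobase of exon. In controls the order of mean CPM per kilobase was Gsn (431.8), Ly6a (89.8), Dpt (40.3), Cd34 (22.1), Pi16 (9.49), Thy1 (5.10), Pdgfra (4.78), Osr1 (1.88), Dpp4 (1.37) and Tcf7l2 (0.482). The ranges over mice of Thy1 and Pdgfra overlapped, as did those of Osr1 and Dpp4, and all other neighbours were apart. In mutants Dpt reached the level of Ly6a, at 79.3 and 78.6 CPM per kilobase with overlapping ranges. Pdgfra moved ahead of Thy1, at 10.3 against 6.73 CPM per kilobase, with ranges apart. Dpp4 drew level with Osr1, at 2.30 and 2.27 CPM per kilobase.

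The markers ranked the mice within a genotype in much the same way. Control 4 was the highest control for 8 of the 10 markers, whereas it was the highest control for 25.5% of all tested genes. Mutant 4 was the lowest mutant for 8 of the 10 (26.3% of all tested genes) and mutant 2 the highest for 7 of the 10 (24.6%). Control 1 was the lowest control for 6 markers and control 2 for the other 4. The markers are read from the same libraries, so these shares are a description. The macrophage receptor Csf1r was also highest in control 4 (49.6 CPM against 26.2 to 29.4 CPM in the other controls) and lowest in mutant 4 (52.3 CPM against 77.0 to 93.8 CPM). With control 4 and mutant 4 both left out, an alternative chosen after the data were seen, the same 6 markers and Thy1 were called higher, 7 in all. Leaving out the highest control and lowest mutant of most markers widens their difference by construction, so the added call carries no weight.

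**Figure D3:**
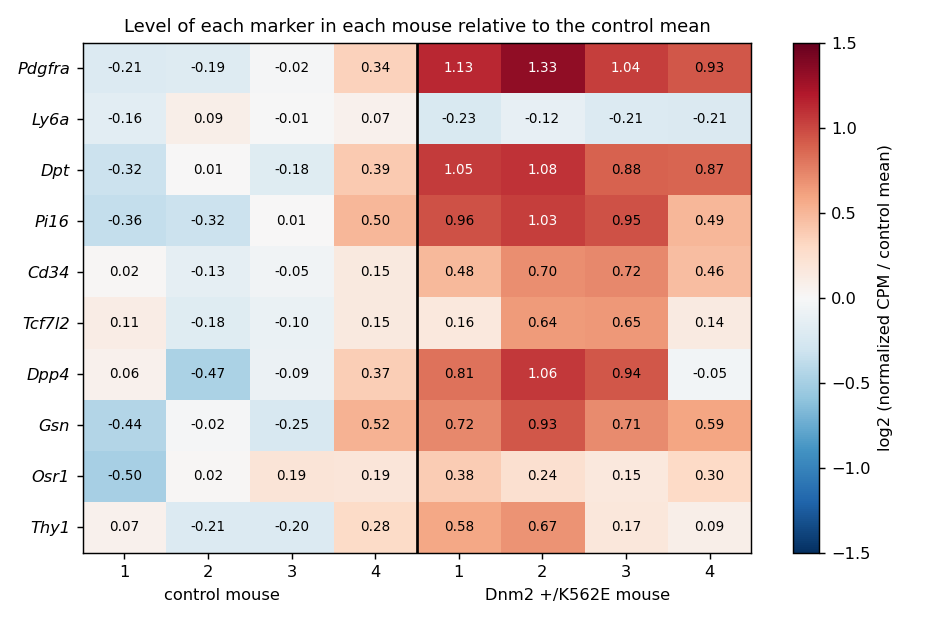
Log2 ratio of each marker's normalized CPM in each mouse to the mean of the 4 controls, with rows for genes, columns for mice and colour for the ratio printed in each cell. Control 4 is the reddest control for most markers, mutant 4 the palest mutant, and the Ly6a row is blue in all 4 mutants.

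Counts of each marker were also divided by the Pdgfra count of the same mouse, a ratio that no scaling enters. Relative to Pdgfra, 6 of the 9 other markers were lower in every mutant than in every control, and none was higher. The same held for 77.2% of the other tested genes, so it is a statement about Pdgfra rather than about those 6. The 3 markers that overlapped between the genotypes were Dpt, with a mean log2 difference of -0.12, Pi16 (-0.22) and Dpp4 (-0.40). At the other end Ly6a went from 1.19 ± 0.23 to -0.12 ± 0.13 on the log2 scale (SD, n = 4 each), so that Ly6a counts exceeded Pdgfra counts in controls and were about equal to them in mutants. Osr1 (-0.83), Thy1 (-0.73), Tcf7l2 (-0.72), Cd34 (-0.53) and Gsn (-0.34) lay between.

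**Figure D4:**
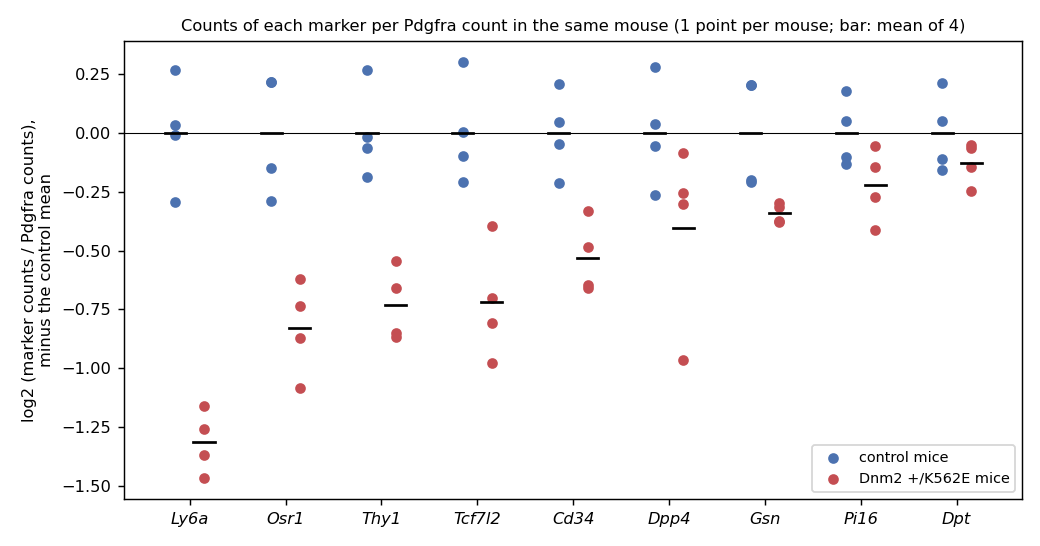
Log2 ratio of each marker's counts to the Pdgfra counts of the same mouse, minus the control mean (y axis), with 1 point per mouse and a bar for the mean of 4. Dpt, Pi16 and Dpp4 overlap between control and Dnm2 +/K562E mice, and Ly6a is farthest apart.

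Other genes of muscle fibroblasts were mostly higher too. Of 12 genes shared by these fibroblasts, 8 were called higher and none lower, with a median log2 fold change of 0.75. Dcn, which encodes the collagen-binding proteoglycan decorin, rose from 757.5 ± 137.1 to 1508 ± 163 CPM (SD, n = 4 each, log2 fold change 0.99). Cd248, the stromal glycoprotein endosialin, rose by a similar amount (0.98), and Pdgfrl, which encodes a receptor-like protein, rose most (1.69). Prrx1, a mesenchymal homeobox factor, was slightly lower in all 4 mutants, at 118 to 130.1 CPM against 142 to 161 CPM (-0.29, not called). Hic1, a quiescence-associated repressor, was at 10.1 to 19.4 CPM in controls and 12.3 to 23.0 CPM in mutants.

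Genes of activated, matrix-producing fibroblasts had a larger median than the markers, with 8 of 10 called higher, 1 lower and a median log2 fold change of 1.56. Tnc, the matrix protein tenascin C, rose from 15.5 ± 4.77 to 87.1 ± 25.97 CPM (SD, n = 4 each, log2 fold change 2.49), and Adam12, a protease of activated progenitors, from 2.69 ± 1.08 to 5.49 ± 0.98 CPM (1.03). Cthrc1, a secreted collagen-linked protein, rose too (1.51). Lrrc15, a marker of myofibroblasts, was the 1 gene called lower, at -1.27 on 7 to 66 counts per mouse. Its call was lost without control 4 (-0.85) or without mutant 2 (-1.32), mutant 3 (-1.25) or mutant 4 (-1.03). The call of Lrrc15 was also lost with the replicate block by title (-1.21) or description number (-1.20) and with library size alone (-1.06). Of 10 genes of Cxcl14-expressing interstitial fibroblasts, 2 were called higher and none lower (median 0.16). Lum, the proteoglycan lumican, rose from 60.8 ± 6.86 to 190.6 ± 29.1 CPM (SD, n = 4 each, log2 fold change 1.65), whereas Cxcl14 itself overlapped between the genotypes (-0.35).

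Among 9 factors secreted by fibro-adipogenic progenitors, 7 were tested and 3 called higher, none lower (median 0.56). Ccn4, also named Wisp1, a factor by which these cells support satellite cells, rose from 5.08 ± 0.779 to 16.9 ± 5.41 CPM (SD, n = 4 each, log2 fold change 1.73). Gdf10, a growth factor of the same cells, overlapped (0.20), and Bmp3 stayed near 1.9 CPM in both genotypes. On the adipogenic side none of 10 adipogenic and adipocyte genes was called in either direction (median -0.09), which does not show that they were unchanged. Pparg, the master regulator of adipocytes, was at 9.22 to 15.5 CPM in controls and 7.96 to 11.4 CPM in mutants. Adipoq, made by mature adipocytes, ranged from 11.3 to 66.6 CPM among controls and from 18.0 to 32.6 CPM among mutants. Ebf1, an early adipogenic factor, was higher in all 4 mutants but under the fold threshold (0.48).

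**Figure D5:**
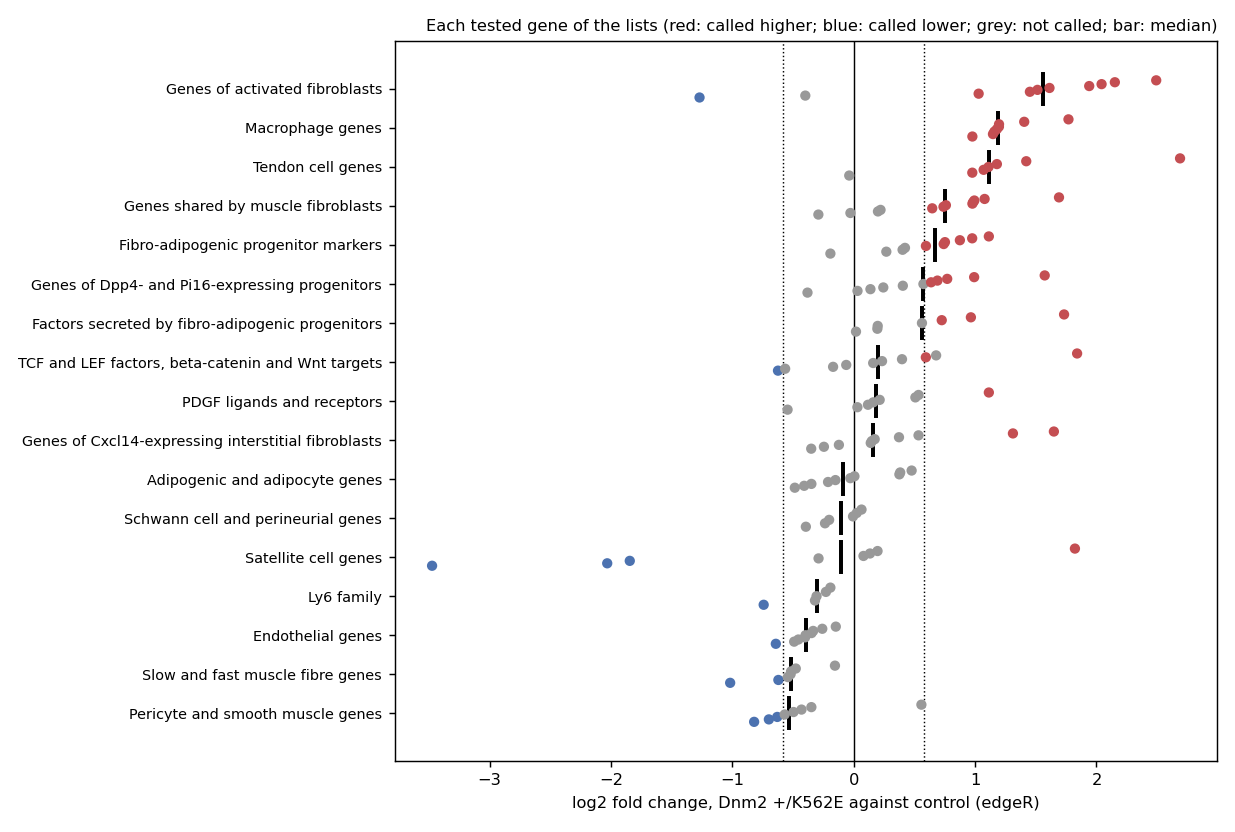
Log2 fold change of every tested gene of 17 lists (x axis), 1 row per list ordered by its median (black bar), with dotted lines at ±0.58. The 10 markers have a median of 0.67, below those of activated fibroblast (1.56), macrophage (1.19), tendon (1.11) and shared muscle fibroblast genes (0.75).

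Genes of other cells in the muscle moved with the markers. All 8 macrophage genes were called higher (median 1.19), and their summed level was 122 to 236 CPM in controls and 262 to 442 CPM in mutants, with none at 0 in any mouse. Of 7 tendon cell genes, 6 were called higher and none lower (median 1.11), and their summed level was 584 to 1156 CPM in controls and 3137 to 4032 CPM in mutants. Thbs4, which is made by tendon and by muscle fibres, went from 366 ± 106 to 2360 ± 269.8 CPM (SD, n = 4 each) and carried most of that sum in mutants. The tendon-defining genes Tnmd, Scx and Mkx had log2 fold changes of 1.42, 1.07 and 1.18. The part of tendon or macrophage RNA in the marker differences was not tested.

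Genes of endothelial cells, which share Cd34 and Ly6a with the progenitors, were mostly lower in mutants. Of 9 endothelial genes (median -0.40), none was called higher and 1, Kdr, was called lower, against 12.9% and 7.85% of all tested genes. Without a fold threshold 7 were lower at an adjusted p under 0.05 in edgeR's quasi-likelihood test, against 21.7% of all tested genes. The summed level of the 9 was 1133 to 1193.5 CPM in controls and 791 to 949 CPM in mutants. Kdr, the main receptor for vascular endothelial growth factor, had a log2 fold change of -0.64, which was -0.58 and no longer called without mutant 2 and -0.43 with library size alone. Pecam1 and Cdh5, the junction proteins of endothelium, were lower in every mutant, at -0.26 and -0.40. Per summed endothelial count, Ly6a was at 0.0819 to 0.102 in controls and 0.0987 to 0.117 in mutants, with overlap. Cd34 was at 0.13 to 0.156 and 0.249 to 0.286, without overlap. The summed endothelial level was itself lower in every mutant, which raises this ratio for any gene that did not fall with it. How many of all tested genes separate by this ratio was not computed, so whether the separation is particular to Cd34 is not known. The part of endothelial RNA in the level of either gene was not tested.

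Of 8 pericyte and smooth muscle genes, 3 were called lower and none higher (median -0.53), led by the actin gene Acta2 (-0.82). Without a fold threshold 7 were lower at an adjusted p under 0.05 in edgeR's quasi-likelihood test, against 21.7% of all tested genes. Every mutant lay below every control for 7, against 20.5% of all tested genes. The pericyte genes Rgs5 (-0.35) and Kcnj8 (-0.43) were among them. Cspg4, a pericyte proteoglycan of the same list, was higher in mutants at 0.56 (adjusted p = 0.0141 in edgeR's quasi-likelihood test), under the fold threshold, and was called higher without control 1 (0.67), mutant 1 (0.62) or mutant 4 (0.67) and with library size alone (0.77). Satellite cell genes were split, with 3 of 8 called lower (Pax7 at -2.03, Myf5 at -1.85 and Calcr at -3.47) and 1, Chodl, higher (1.82). Of 6 Schwann cell and perineurial genes none was called (median -0.10). Of 7 muscle fibre genes 2 were called lower and none higher (median -0.52), among them Ckm, the muscle creatine kinase, at -1.02. T cell genes were nearly absent, with 2 of 8 tested, a summed level of at most 3.58 CPM in any mouse and the defining genes Cd3e, Cd3g and Cd3d at 0 in at least 1 mouse each. Cd2 was the T cell gene called higher (2.06), on 3 to 66 counts per mouse.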

How the data were processed

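Soleus RNA of 4 control and 4 Dnm2 +/K562E mice was sequenced as paired-end reads. The authors deposited raw read counts per gene and mouse, without normalization. The submitters' processing notes name Trimmomatic 0.33, STAR 2.5.1b, featureCounts, edgeR 3.14.0 and the build GRCm38.p5. The study's methods describe poly A-enriched RNA and the labels a stranded total RNA kit, and whether counting used the strand is not given in the sources used here. Gene models overlap exons of Pdgfra, Pi16, Cd34 and Dpp4 on the opposite strand and have no row of their own among the counted genes, so their reads may be included.

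Of 22880 gene IDs, 22647 matched GENCODE M21, and all 163 listed genes were found. Some genes of the fixed lists are not reported here. In R 4.3.3 with edgeR 4.0.16, filterByExpr was run with a minimum count of 10 and a minimum total of 15 and kept 14001 genes. These were scaled by TMM and fitted with the quasi-likelihood model, and Benjamini-Hochberg adjustment covered all of them. Standard errors were derived from the F statistic. The fit was tried on simulated counts with 200 changed genes, fewer than were called in the mice. That trial checks the code and does not speak for the calls made here. Counts differed by more than sampling noise between any 2 mice of a genotype (chi-square per degree of freedom 12.6 or more). The text names all 10 markers, every tested PDGF and Ly6 gene and, of the other lists, genes among the first 3, those with the smallest p in each direction and those at both ends of the fold change range. The markers and all lists were chosen with earlier results of these data known, so no list was tested as a set. As alternatives, DESeq2 1.42.0 and edgeR's exact test, scaling by library size alone or by median ratios, no filter, at least 10 counts in every mouse, replicate blocks, no fold threshold and leaving out each mouse were tried. Leaving out both mice numbered 4 was added after the data were seen.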

Additional observations from a re-analysis of the deposited data

Results flagged for a closer look

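Among the 20 groups of 4 mice formed by the 10 markers and 2 genotypes, 1 held a mouse set apart from the other 3 by Dixon's criterion, about as many as chance gives, which is 1 in 20. This was Ly6a in Dnm2 +/K562E mouse 2, at 99.47 normalized CPM, against 92.5, 93.7 and 93.4 CPM in the other mutants. Without this mouse the mutants would lie below all 4 controls.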

How the results depend on the processing

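The 10 markers kept their direction and their side of the threshold in 155 of 170 comparisons with an alternative, lost a call in 11, gained one in 3 and changed sign in 1. The count of 6 markers called higher was 8 with library size alone (Tcf7l2 and Thy1 added). It was 4 to 6 when each mouse was left out, where Cd34 and Dpp4 were lost. The count of none called lower was 1 without a fold threshold, and with the threshold it was 0 in every leave-out. That 1 was Ly6a, with an adjusted p of 0.0332 in edgeR's quasi-likelihood test. Its adjusted p was over 0.05 in the exact test, with library size alone, in both replicate blocks and in 6 of 8 leave-outs. It was under 0.05 in DESeq2, with median-ratio factors and with both other filters. Over all genes, 1806 were called higher and 1099 lower. These counts moved to 2865 and 564 with library size alone, where the median of all genes shifted by 0.21, and to 3103 and 3036 without a fold threshold, and ran from 1588 to 1970 and from 1026 to 1209 when each mouse was left out.

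Mice of both genotypes carry numbers from 1 to 4 but are separate animals. The deviations of same-numbered mice from their group mean correlated at -0.21, -0.09, 0.01 and -0.17 by the numbers of the titles and at 0.18, -0.10, -0.03 and -0.17 by those of the descriptions, so the numbers were not taken to pair the mice. The replicate block gave 1637 higher and 1036 lower genes by title number and 1739 and 1083 by description number, and of the 10 markers only Dpp4 lost its call, leaving 5. Of the other genes named, Lrrc15 lost its call with either block (-1.21 and -1.20). With the block, Bmp3 turned to -0.0382 (titles) and -0.0213 (descriptions), Chad to 0.0803 and 0.0841, and Tcf7 to 0.0252 (titles).

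With library size alone the sign turned for Ly6a (0.0189), Hic1 (0.19), Tcf7 (0.14), Cldn5 (0.0691), Chad (0.17) and Tnni1 (0.0592). With both mice numbered 4 left out it turned for Hic1 (0.12), Cldn5 (0.0357), Chad (0.37), Sox10 (-0.11) and S100b (-0.12). Leaving out each mouse in turn gave a range of log2 fold changes across 0 for Hic1 (-0.27 to 0.0752), Bmp3 (-0.33 to 0.18), Pdgfc (-0.0649 to 0.14), Tcf7 (-0.28 to 0.35), Cldn5 (-0.50 to 0.0463), Chad (-0.26 to 0.28), Sox10 (-0.0359 to 0.16) and S100b (-0.0647 to 0.1494). None of these was called in the main comparison, and the cause was not tested. Lef1 passed the rule without control 1 (1.601), on 3 to 34 counts per mouse. The markers with the fewest counts were Osr1 and Tcf7l2, at 92 to 284 per mouse.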
